A study of Mus musculus with 2 samples.

Results

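The genes described here encode Wnt ligands, their Frizzled and Lrp receptors, the secreted proteins that restrain them, and the Axin and Tcf/Lef proteins that act inside the cell. They were chosen by gene symbol in the platform's probe annotation: Wnt followed by a digit, leaving out Wnt4, then Fzd, Sfrp and Dkk followed by a digit, and Lrp5, Lrp6, Wif1, Axin1, Axin2, Tcf7, Tcf7l1, Tcf7l2 and Lef1. The rule found 40 of the 15056 genes with a symbol on the array, measured by 57 features. There were 18 ligands, 9 receptors, 9 antagonists and 4 Axin and Tcf/Lef genes. No feature carried the symbol Tcf7 or Tcf7l1 in this annotation, so neither could be analysed.

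Wnt proteins are lipid-modified signals that bind a Frizzled receptor on the cell surface. When Lrp5 or Lrp6 joins the complex, the Axin scaffold can no longer direct the destruction of beta-catenin, which then enters the nucleus and switches on genes with Tcf and Lef factors. In the mouse mammary gland the pathway is needed to form the embryonic bud and sustains basal stem cells, and Wnt1, Wnt3 and Wnt10b are known as genes activated by insertion of mouse mammary tumour virus.

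The study compared mammary glands of adult mice by two-colour spotted oligonucleotide arrays. The het mice were GATA-3flox/+; WAP-rtTA-Cre, with 1 floxed allele of Gata3, which encodes a zinc finger transcription factor of luminal epithelium, and the null mice were GATA-3flox/flox; WAP-rtTA-Cre, with both alleles floxed. Both genotypes carried the transgenes and both received doxycycline for 5 days, so Cre recombinase could be made in het and null glands alike. WAP is the promoter of a milk protein gene of mammary epithelium, and fat, stroma, vessels and immune cells in the same whole gland are not known targets of it. Both of the 2 arrays carried het RNA in the Cy5 channel and null RNA in the Cy3 channel, with no dye swap. A dye effect on a gene would repeat on both arrays and cannot be told apart from genotype here. Whether the RNA came from separate or pooled animals is not in the labels, so errors and p-values cover only how these 2 arrays differed, possibly for technical reasons.

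All values are log2 ratios of the channels as deposited, and the features of a gene were averaged on each array. The numerator of the ratio is not stated in the labels. With Cy5 over Cy3, a positive ratio reads as more RNA in het glands, and with Cy3 over Cy5 as more in null glands. Either reading holds only where the ratio does not come from the dyes. Gata3 itself was positive on both arrays, at 1.60 and 0.20, with a mean of 0.90 ± 0.98 (SD, n = 2), and did not pass the test (limma adjusted p = 0.156). The place of its probe relative to the deleted exons is unknown here, and the sign cannot be read from it. Spread was wider on array 1, with an SD over features of 0.67 against 0.44 on array 2.

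Of this group 3 genes passed the test, and 2 of these, from 1 family, lay on opposite sides of 0. Fzd1, a Frizzled receptor, had a mean ratio of 1.86, and among all 15056 genes it ranked 2 from the positive end. Sfrp4 and Sfrp5, secreted Frizzled-related proteins that bind Wnts outside the cell, stood at 1.14 and -0.97. The test was limma's against 0, adjusted over all genes, with a threshold of 0.05, and 2 members passed it on the positive and 1 on the negative side. Of all genes tested 8.26% passed, 7.28% with a positive and 0.983% with a negative ratio. The 3 of 40 members come to 7.50%, close to that share.

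To show the DNA in front of these genes, the RefSeq promoter window of build GRCm38.p6 is given from 250 bases before to 50 bases after the start, read on the gene's own strand. RefSeq windows matched 27 of the 40 members. They are shown for Fzd1 and Sfrp5, which passed the test, and for Wnt3, the ligand nearest to passing it. Each window shown holds a match, so they do not stand for the members at large. Sfrp4 passed the test too but is not shown. It is not among the members with either set of letters, and whether it had a window is not given here. Capitals mark the GATA letters AGATAA, likewise TGATAA, likewise AGATAG and likewise TGATAG, and the Tcf/Lef letters CTTTGAA, likewise CTTTGAT, likewise CTTTGTA and likewise CTTTGTT, each searched on both strands.
Fzd1: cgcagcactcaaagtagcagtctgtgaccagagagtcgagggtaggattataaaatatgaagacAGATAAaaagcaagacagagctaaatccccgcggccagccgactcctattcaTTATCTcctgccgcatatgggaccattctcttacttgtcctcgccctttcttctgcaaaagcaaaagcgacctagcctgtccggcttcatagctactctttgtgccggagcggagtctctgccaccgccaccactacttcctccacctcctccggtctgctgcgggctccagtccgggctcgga
Sfrp5: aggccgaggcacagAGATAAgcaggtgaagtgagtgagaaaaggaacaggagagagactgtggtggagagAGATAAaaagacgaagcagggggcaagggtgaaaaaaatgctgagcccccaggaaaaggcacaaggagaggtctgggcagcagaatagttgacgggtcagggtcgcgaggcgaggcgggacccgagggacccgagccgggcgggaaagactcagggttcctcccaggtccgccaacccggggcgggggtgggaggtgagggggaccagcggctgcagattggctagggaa
Wnt3: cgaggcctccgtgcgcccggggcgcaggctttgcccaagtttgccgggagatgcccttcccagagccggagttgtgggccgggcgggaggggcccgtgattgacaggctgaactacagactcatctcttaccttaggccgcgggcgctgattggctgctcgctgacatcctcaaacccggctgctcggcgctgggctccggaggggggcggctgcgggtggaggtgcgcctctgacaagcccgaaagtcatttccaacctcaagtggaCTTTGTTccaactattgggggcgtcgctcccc

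The Fzd1 window lies at chr5:4758167-4758466 on the minus strand and holds 2 matches of the GATA letters, 1 on each strand. The Sfrp5 window, at chr19:42202203-42202502 on the minus strand, also holds 2, both on the strand of the gene. The Wnt3 window, at chr11:103773925-103774224 on the plus strand, holds 1 match of the Tcf/Lef letters. The 2 sets of letters can overlap, since CTTTGAT may run on into TGATAA, but no matches overlapped in these windows. GATA letters occurred in 29.8% of all 32851 windows and Tcf/Lef letters in 16.9%. Among members with a window, 7 of 27 had GATA letters, namely Fzd1, Sfrp5, Wnt2, Wnt8b, Wnt11, Lef1 and Tcf7l2. Tcf/Lef letters were also found in 7 of 27, namely Wnt3, Wnt5b, Wnt11, Fzd7, Dkk1, Lef1 and Tcf7l2. Counted by window, as for the share over all promoters, each set of letters was found in 7 of the 34 windows of members. A match is a stretch of letters and not a measured binding site.

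**Figure D1:**
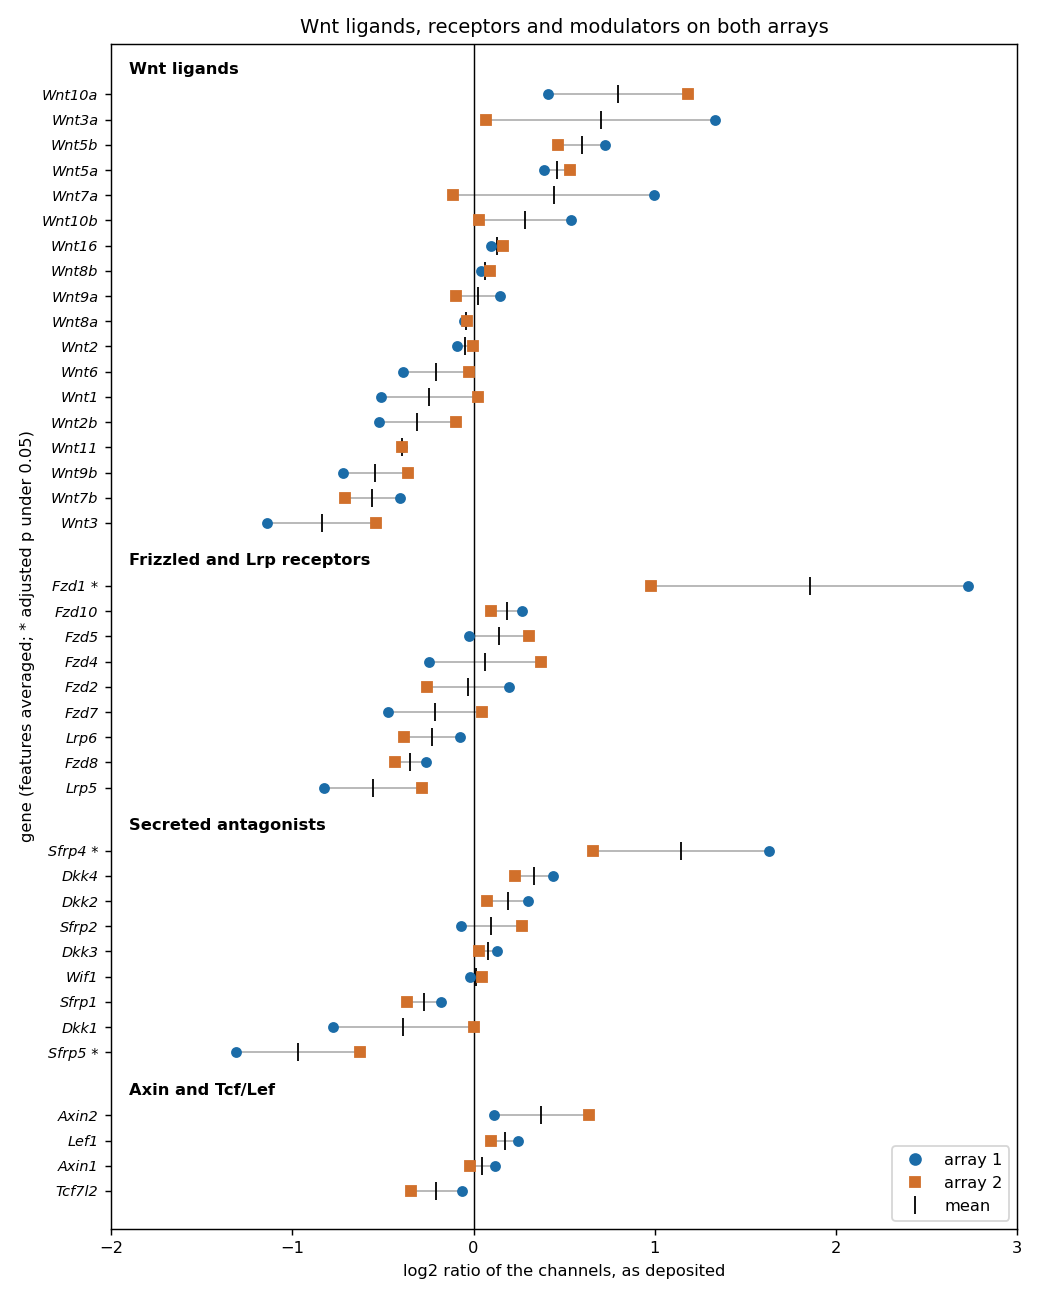
Log2 ratio of the channels (x axis, as deposited) for each of the 40 genes (y axis, grouped by role and ordered by mean); circles are array 1, squares array 2 and ticks the mean of the 2 arrays. Fzd1, Sfrp4 and Sfrp5, marked with an asterisk, passed the test, and Fzd1 stands apart with ratios of 2.73 and 0.98.

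Among the ligands, no gene passed the test over all genes, and the 18 genes lay on both sides of 0, with means from -0.84 to 0.80. Ratios were positive on both arrays for 7 ligands, negative on both for 8, and of opposite sign for 3. Over all genes 33.7% were positive and 34.1% negative on both arrays. At an unadjusted p under 0.05 by limma there were 6 of 18 ligands, where 23.8% of all genes had such a p.

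Wnt3, which signals through beta-catenin and is the closest relative of Wnt3a, had the most negative mean of the ligands. Its ratios were -1.14 and -0.54, with a mean of -0.84 ± 0.42 (SD, n = 2) with a 95% interval of -1.34 to -0.33 (limma adjusted p = 0.0628). Wnt3a was on the other side of 0, at 1.33 on array 1 but 0.07 on array 2, which gives a mean of 0.70 ± 0.89 (SD, n = 2) with an interval of -0.03 to 1.43 (limma adjusted p = 0.226). The pair therefore lay apart on both arrays, widely on array 1, and only array 1 placed Wnt3a far from 0.

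Wnt10a, a ligand known from skin appendages and teeth, had ratios of 0.41 and 1.18, a mean of 0.80 ± 0.55 (SD, n = 2) with an interval of 0.24 to 1.35 (limma adjusted p = 0.0923). It was the ligand for which array 2 gave the larger value by the widest margin. Its relative Wnt10b, which is expressed in the embryonic mammary line, averaged 0.29 over features that disagreed, as described below.

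Wnt5a and Wnt5b, which act largely without beta-catenin, were positive on both arrays as gene averages. Wnt5b had ratios of 0.73 and 0.47 and a mean of 0.60 (limma adjusted p = 0.103). Wnt5a, known to restrain branching of mouse mammary ducts, had ratios of 0.39 and 0.53 and a mean of 0.46 (limma adjusted p = 0.177). These values average features of opposed sign, as described below. Wnt11, another ligand of cell movement and polarity, was negative, at -0.40 and -0.39 (limma adjusted p = 0.232). The gene averages of these ligands thus did not share a sign, and none of them passed the test.

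Wnt7b, a ligand of epithelia, had ratios of -0.41 and -0.71 and a mean of -0.56 (limma adjusted p = 0.126). Wnt7a, its closest relative, had 0.998 on array 1 and -0.11 on array 2 (limma adjusted p = 0.408). Wnt9b, which is needed for kidney tubules, was negative on both arrays at -0.72 and -0.36 (limma adjusted p = 0.142), and Wnt9a averaged 0.02. Wnt1, the founding mammary oncogene of the family, gave -0.51 and 0.02. Wnt6 stood at -0.39 and -0.02 and Wnt2b at -0.52 and -0.10. The remaining ligands, Wnt2, Wnt8a, Wnt8b and Wnt16, had means from -0.05 to 0.13, none with an adjusted p under 0.7. The means of paralogous ligands lay on opposite sides of 0 as well as together, but no ligand passed the test. Wnt7a and Wnt9a changed sign between the arrays, and Wnt5a and Wnt10b had features of opposed sign.

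Wnt4, the ligand kept apart by the rule and known to act downstream of progesterone, had ratios of -1.37 and -0.38 and a mean of -0.88 (limma adjusted p = 0.0984).

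Fzd1 stood far from the other receptors. Its single feature had a ratio of 2.73 on array 1, which is 6.64-fold, and 0.98 on array 2, which is 1.98-fold. The mean was 1.86 ± 1.24 (SD, n = 2), or 3.62-fold, with a 95% interval of 0.93 to 2.79 (limma adjusted p = 0.0399). Both arrays were positive and both far from 0, but the array values differed by more than the size of the ratio on array 2. Its closest relatives are Fzd2 and Fzd7, and neither followed it. Fzd2 had ratios of 0.20 and -0.26, and Fzd7, known from basal mammary cells, -0.47 and 0.05.

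Lrp5, a co-receptor for signalling through beta-catenin, was negative on both arrays at -0.82 and -0.28, with a mean of -0.55 ± 0.38 (SD, n = 2) and an interval of -1.04 to -0.06 (limma adjusted p = 0.162). Lrp6, the second co-receptor, had -0.08 and -0.38 (limma adjusted p = 0.523). Fzd8 was likewise negative on both arrays at -0.26 and -0.43, with a mean of -0.35 ± 0.12 (SD, n = 2) and an interval of -0.77 to 0.08 (limma adjusted p = 0.303). Both co-receptors thus lay below 0 on both arrays without passing the test. Fzd4, which also serves the ligand Norrin in the mouse retina, had -0.25 and 0.37, and Fzd5 and Fzd10 had means of 0.14 and 0.18. In all, 2 receptors were positive on both arrays, 3 were negative on both and 4 changed sign between the arrays.

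**Figure D2:**
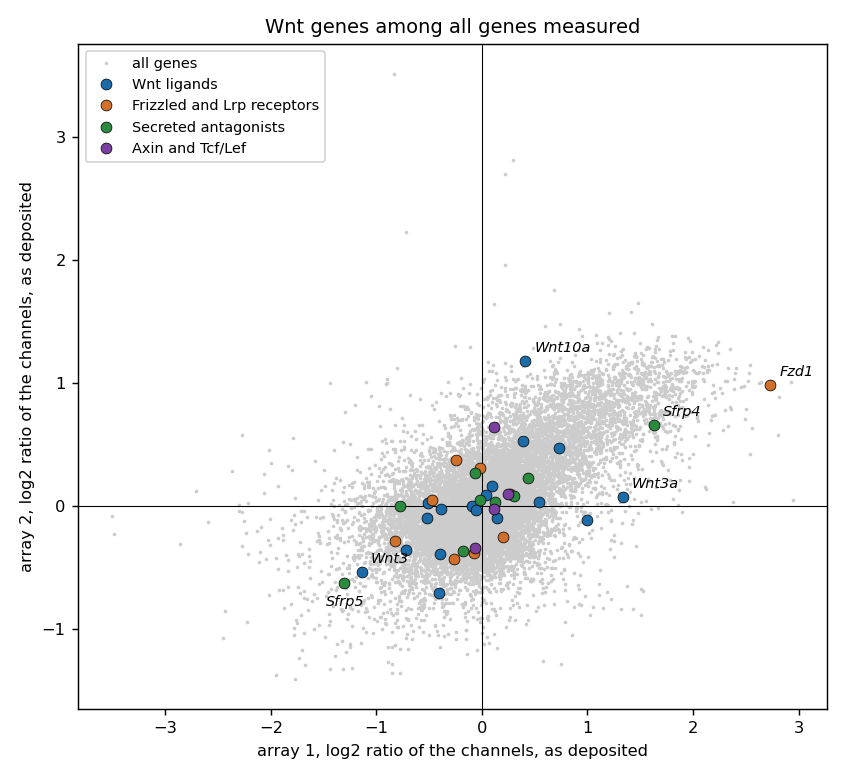
Log2 ratio on array 1 (x axis) against array 2 (y axis), as deposited, for all 15056 genes (grey) and the 40 Wnt genes coloured by role. Most members lie in the centre of the grey cloud, while Fzd1 lies at the right edge and Sfrp4 in the arm of genes positive on both arrays.

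The secreted antagonists held both other genes past the test, on opposite sides of 0. Sfrp4 stood at 1.63 and 0.66, that is 3.09-fold and 1.58-fold. Its mean was 1.14 ± 0.69 (SD, n = 2) with an interval of 0.52 to 1.77 (limma adjusted p = 0.0481). Sfrp5, an antagonist also made by white fat in mice, had -1.31 and -0.63, a mean of -0.97 ± 0.48 (SD, n = 2) with an interval of -1.50 to -0.44 (limma adjusted p = 0.0484). On both arrays Sfrp4 was above 0 and Sfrp5 below it. Sfrp5 ranked 130 from the negative end of the 15056 genes and Sfrp4 ranked 495 from the positive end. The other Sfrp genes lay between them: Sfrp1 had -0.18 and -0.37, and Sfrp2, a product of stromal cells, had -0.07 and 0.27.

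The Dkk proteins bind Lrp5 and Lrp6 and keep them from the receptor complex, apart from Dkk3, a divergent member of the family. Dkk4 had ratios of 0.44 and 0.23, a mean of 0.33 ± 0.15 (SD, n = 2) with an interval of -0.10 to 0.76 (limma adjusted p = 0.326). Dkk1, the best known inhibitor of the co-receptors, gave -0.78 on array 1 and 0.00 on array 2, so that 1 array alone placed it away from 0. Dkk2 had 0.30 and 0.08, Dkk3 0.13 and 0.03, and Wif1, which binds Wnts directly, -0.02 and 0.05. No Dkk gene and not Wif1 passed the test, with adjusted p from 0.326 to 0.977 in limma.

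Of the genes inside the cell, none passed the test. Axin2, which is both a brake on the pathway and one of its most general targets, had ratios of 0.11 and 0.64, a mean of 0.38 ± 0.37 (SD, n = 2) with an interval of -0.11 to 0.86 (limma adjusted p = 0.331). Lef1, a nuclear partner of beta-catenin that is also made by T cells, had 0.25 and 0.10, a mean of 0.17 ± 0.11 (SD, n = 2) with an interval of -0.25 to 0.60 (limma adjusted p = 0.627). Tcf7l2, a further nuclear partner, had -0.07 and -0.34, a mean of -0.20 ± 0.20 (SD, n = 2) with an interval of -0.64 to 0.23 (limma adjusted p = 0.571). Axin1, the constitutive scaffold, stood at 0.12 and -0.02. The intervals of Axin2, Lef1 and Tcf7l2 all included 0, and they do not show that these genes were equal in het and null glands.

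The members lay about evenly on both sides of 0. The median of the 40 means was 0.04, beside -0.02 over all genes. On array 1 the median was -0.02 and on array 2 it was 0.03. Ratios had one sign on both arrays for 29 of 40 members, 15 positive and 14 negative, or 72.5% against 67.9% of all genes. Both ratios lay within 0.5 of 0 for 23 members, a count that was not taken over all genes. Both were 0.5 or more from 0 with one sign for 4 members, Fzd1, Sfrp4, Sfrp5 and Wnt3, against 13.1% of all genes. At an unadjusted p under 0.05 by limma there were 10 of 40 members, against 23.8% of all genes.

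All 3 members past the test were measured by a single feature, and 0 of the 15 members with 2 or 3 features passed. Over the whole array 11.4% of genes with 1 feature passed, against 2.24% of genes with 2 or more. When features were tested singly, 0 of 38976 passed over all features (limma). A feature with an unadjusted p under 0.05 was found for 17 of 40 members, beside 4537 of all 15056 genes. Fzd1 then had an adjusted p of 0.0547, Sfrp4 0.0647 and Sfrp5 0.0679, so their calls rest on testing genes in place of features. With a robust prior at the gene level, Sfrp4 (limma adjusted p = 0.0542) and Sfrp5 (0.052) did not pass either.

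**Figure D3:**
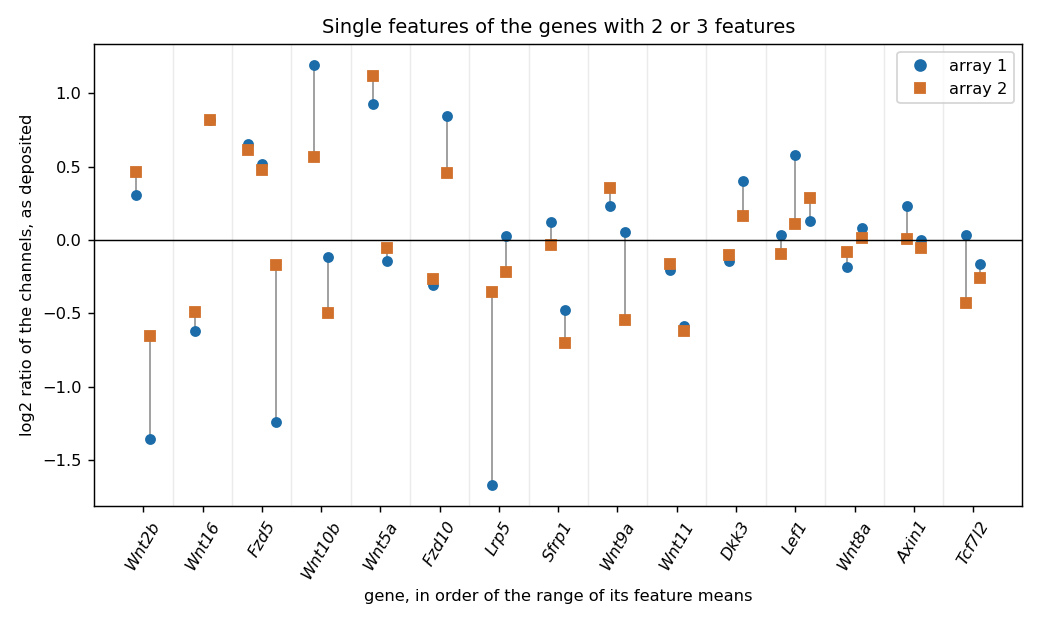
Log2 ratio of the channels (y axis, as deposited) of every feature of the 15 genes with 2 or 3 features (x axis, ordered by the range of the feature means); circles are array 1, squares array 2, and a line joins the values of 1 feature. For Wnt16 and Wnt5a the features lie far apart while the arrays nearly coincide.

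Where a gene had several features, they often disagreed in sign. In 9 of these 15 genes 1 feature was positive on both arrays and another negative on both. That was so for 27.2% of all 5138 genes with 2 or more features and for 24.2% of the 4714 genes with 2 or 3. The median range between feature means of 1 gene was 0.64 in the members, and the median difference between the arrays for a feature was 0.21. Over all such genes these medians were 0.46 and 0.35. The annotation gives the features of each of these genes the same transcript accession, and probe sequences and spot intensities were not used here.

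Several ligand genes had features far apart. Wnt16, a ligand of bone and skin, had a feature with 0.82 on both arrays and a second with -0.62 and -0.49, so its mean of 0.13 described neither. Wnt5a had a feature at 0.92 and 1.12, with a limma adjusted p over features of 0.0512, and another at -0.14 and -0.06. Wnt2b had 0.31 and 0.46 on one feature and -1.36 and -0.66 on the other. In each of these ligands the distance between features was wider than that between arrays of a feature. Wnt10b had 1.19 and 0.56 on one feature and -0.11 and -0.50 on the other, so that the positive feature matched the sign of Wnt10a.

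Among receptors, Fzd5, the closest relative of Fzd8, had 3 features. Of these, 1 gave 0.65 and 0.61, another 0.52 and 0.47, and the last -1.24 and -0.17. The features at the positive end were nearly equal on both arrays, and the last differed between arrays by more than 1. Fzd10 had 0.84 and 0.46 on one feature and -0.31 and -0.27 on the other. Lrp5 had a feature at -1.67 and -0.35 and a second at 0.03 and -0.21, so its negative mean came largely from 1 feature on array 1. Dkk3, Wnt8a and Axin1 had features of opposed sign too, but all their values lay within 0.4 of 0.

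The rest of the Wnt pathway was read from a list of 101 further genes, of which 84 were measured. Of these, 3 passed the test with a positive and 0 with a negative ratio, or 3.57% beside the 8.26% of all genes. At an unadjusted p under 0.05 by limma there were 13 of 84, beside 23.8% of all genes. After subtracting the median of each array, and likewise after either other scaling, 2 genes passed with a negative ratio. Frat2, which binds the kinase Gsk3 and hinders its action on beta-catenin, had ratios of 1.34 and 1.07 and a mean of 1.20 (limma adjusted p = 0.0336). Rspo3, a secreted R-spondin that prolongs the life of Wnt receptors, had 1.16 and 0.80 and a mean of 0.98 (limma adjusted p = 0.0362). Ctbp1, a transcriptional corepressor, had 0.65 and 1.18 and a mean of 0.91 (limma adjusted p = 0.0459). These 3 genes act outside the cell, in the cytoplasm and in the nucleus, and each had 1 feature.

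More genes of this wider list were negative on both arrays than positive, 39 against 20 of 84, with a median mean of -0.06. Of all genes 34.1% were negative and 33.7% positive on both arrays. Target genes of beta-catenin were negative on both arrays for 9 of 15 and positive for 3, with medians of -0.18 and -0.09, and none passed. These 15 leave out members such as Axin2, a target that was positive on both arrays. The targets farthest from 0 with one sign were Wisp2 at -0.80 and -0.61 (limma adjusted p = 0.0636), Cdx1 at -1.06 and -0.20 and Sox4 at 0.89 and 0.18. Among genes of planar polarity and calcium signalling, 8 of 18 were negative and 3 positive on both arrays, and none passed. The farthest were Rac1, a small GTPase, at -1.84 and -0.53 (limma adjusted p = 0.0714), Celsr3 at -0.99 and -0.28, and Camk2b at -0.61 and -0.15. Ctnnb1, which encodes beta-catenin itself and is named for its place in the pathway, had 0.003 and 0.016.

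**Figure D4:**
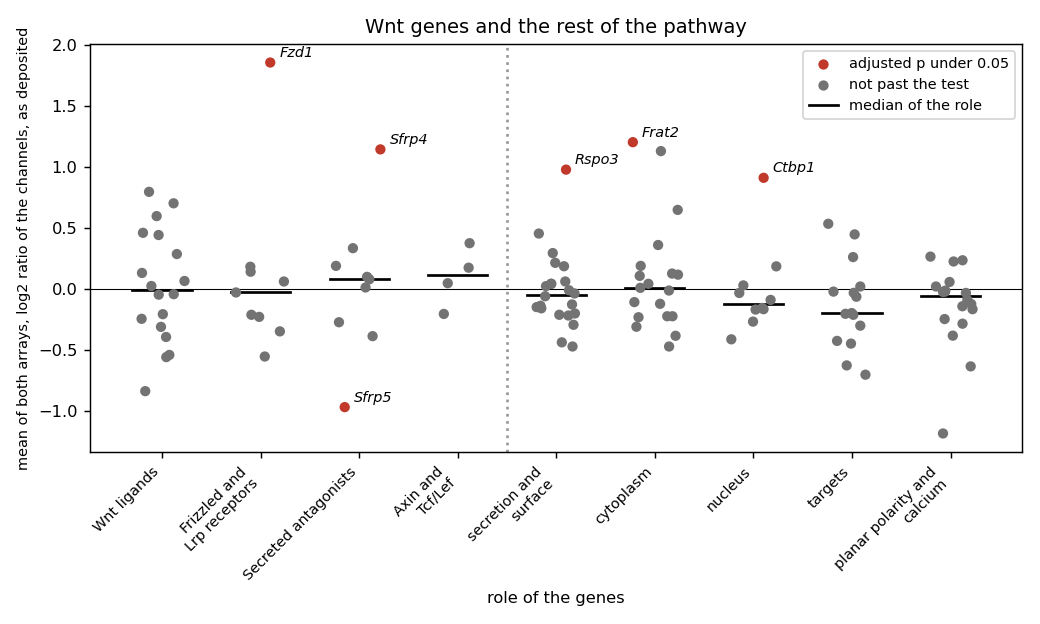
Mean log2 ratio over both arrays (y axis, as deposited) for the 40 Wnt genes, left of the dotted line, and 84 further pathway genes by role, right of it; points are genes, spread sideways at random, and bars are medians. Red points passed the test: Fzd1, Sfrp4 and Sfrp5 on the left, and Rspo3, Frat2 and Ctbp1 on the right.

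Whole glands were compared, so fewer cells of a type and less RNA per cell cannot be told apart. Fibroblast markers, relevant to stromal Sfrp genes, were negative on both arrays for 4 of 7 genes and positive for 0, with medians of -0.66 on array 1 and -0.07 on array 2. White adipocyte markers, relevant to Sfrp5, had 3 of 7 negative and 2 positive, with medians of -0.44 and 0.10. T cell markers, relevant to Lef1, had 3 of 5 negative and 1 positive, with medians of -0.29 and -0.09. Hormone-sensing luminal markers had 3 of 6 negative and 1 positive, with medians of -0.69 and -0.27. Basal myoepithelial markers had 3 of 7 negative and 2 positive, with medians of 0.02 and -0.10. Alveolar markers had 3 of 6 negative and 1 positive, endothelial markers 3 of 7 each way, B cell markers 2 of 5 negative and 0 positive, and macrophage markers 3 of 6 negative and 2 positive. Single markers could go against their list. Those past the test were Csn3 (alveolar) at 1.05 and 0.80, Cd3g (T cell) at 1.105 and 0.68, and Ctss (macrophage) at 1.64 and 1.26. Krt5 (basal) also passed, at -1.31 and -0.62, while Krt14 of the same list had 1.10 and 0.51 and did not pass. The part of these cell types in the Wnt values was not tested.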

How the data were processed

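Ratios of 2 two-colour spotted oligonucleotide arrays were used. Per the series' design text, print-tip lowess was run by the authors in Acuity 4.0. The deposited values were read as log2 ratios from their range. Not given in the sources used here are the log base, the numerator of the ratio, the centring, the correction for background and the spot filters. Another base would rescale every value. All 38976 features had values on both arrays. Of these, 22973 had 1 gene symbol, 0 had several and 16003 had none. All 22973 matched RefSeq by Entrez ID and stood for 15056 genes. The number of arrays limits the precision.

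Features of a gene were averaged on each array and each gene's ratio was set against 0 in limma 3.58.1 (R 4.3.3), with two-sided p-values adjusted by Benjamini-Hochberg over all genes and a threshold of 0.05. Each gene has 1 residual degree of freedom, to which the prior adds 5.41. An exact sign-flip test cannot go below p = 0.5. Neither a dye term nor a block could be fitted. Tested on simulated data for 15056 genes, 22 of 50 genes with a log2 ratio of 1, 50 of 50 at 2 and 17 of 14856 unchanged genes were called. The simulation took its variances from the fitted prior, with equal spread on both arrays, 200 changed genes and no dye effect. Its counts therefore do not give the error rate or power for these arrays, whose spread differed.

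Members and lists were chosen with earlier results of these data known. Full statistics went to members past the test and, in each role, to the 3 of consistent sign that were farthest from 0 by their mean. Other pathway genes were named if past the test, or, in roles with none, as the 3 farthest from 0 with one sign. Features were given singly where a gene's features had opposed signs. Other members are given with fewer values, and Lrp5's features and Ctnnb1 were named after their values were seen. Alternatives were other scalings, other summaries of features, tests of features, leaving out discordant features (arrays more than 1 apart), a robust prior, other thresholds and each array alone. Figures were drawn with matplotlib 3.10.9.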

Additional observations from a re-analysis of the deposited data

How the results depend on the processing

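The count of 3 members past limma's test was 4 after subtracting the median of each array and with arrays scaled to equal median absolute deviation, 6 after quantile normalization, 8 without features that were more than 1 apart between arrays (a filter that removes Fzd1), 1 with a robust prior, 5 at an adjusted p of 0.1, and 0 with the median of a gene's features in place of the mean, where 11 had an unadjusted p under 0.05. It was 0 with features tested singly, where 17 members had such a feature, and 0 members were at least 1 from 0 on both arrays. For the wider pathway the count of 3 became 5, 5, 6, 6, 3, 5, 2, 0 and 1 under these settings in the same order (with 2 negative genes after each scaling and at 0.1, and 3 without discordant features, against 0 as reported), and the count over all genes, 1244, became 1793, 1941, 2391, 2815, 1183, 2113, 942, 0 and 323. Without discordant features 14418 genes were left, of which 19.5% passed, and after quantile normalization 15.9% of all genes passed, beside 8.26% as reported. Over the wider pathway 27 genes and over all 4537 genes had a feature with an unadjusted p under 0.05.

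Fzd1 passed under 4 of 6 alternatives with a test (adjusted p 0.00104 to 0.0547), Sfrp4 under 4 of 7 (0.000301 to 0.0647) and Sfrp5 under 4 of 7 (0.000729 to 0.0679). Each lost its call with the median of a gene's features (0.0536, 0.0622 and 0.061) and with features tested singly. Sfrp4 (0.0542) and Sfrp5 (0.052) also lost it with the robust prior. Each of the 3 genes had 1 feature, so its own ratios were the same under these settings. What differed was the fit and the adjustment shared with all other genes or features. Of members that did not pass as reported, Wnt3 passed under 4 of 7, Wnt10a and Wnt5b under 2 each, and Wnt7b, Wnt9b and Fzd5 under 1 each. Leaving out discordant features is among the passes of every gene counted here but Fzd1. It is the only pass of Wnt7b, Wnt9b and Fzd5, and it gave the lowest adjusted p of Sfrp4 and Sfrp5. This filter picks features by the difference between arrays, from which the test takes its error. Its p-values therefore cannot be taken at face value. Under the alternatives with a test, mean ratios ranged from 1.73 to 1.87 for Fzd1, 1.05 to 1.16 for Sfrp4 and -0.97 to -0.93 for Sfrp5. Among alternatives with a test Wnt9a alone changed sign, from 0.02 to -0.019 after quantile normalization. Between 27 and 30 members had one sign on both arrays. The median of the members was -0.02 to 0.03 with either array left out, a value with no test. The test of ratios within arrays is itself paired by array, and no further block could be fitted. Which of the shared steps cost each lost call was not tested.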
